A study of Mus musculus with 16 samples.

Results

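The genes described here are 10 vascular growth ligands and receptors: Apln and its receptor Aplnr, the ligand Vegfa and its receptors Flt1 and Kdr, the ligands Angpt1 and Angpt2 with the receptors Tek and Tie1, and the related secreted protein Angptl4. They were taken by gene symbol from a table of 19449 genes, and each of the 10 was found there and passed the filter on low counts. RNA of the hippocampus of mice 3 months old was sequenced in 16 libraries, 4 in each of 4 groups: genotype WT (wild type) injected with PBS, the vehicle; WT injected with LPS, a component of the bacterial cell wall that sets off inflammation; and the genotype TSPOKO (knockout of Tspo, the gene of a protein of the outer mitochondrial membrane) injected with PBS or with LPS. The labels do not state how the Tspo deletion was made, the strain, the sex, the dose of LPS, its route or the time from injection to tissue. They also do not say whether the libraries of a group come from separate animals, so each p-value measures only the spread between these libraries, which may be technical.

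VEGF-A is secreted by many cells, in the brain largely by astrocytes and neurons, and acts on the endothelial receptor tyrosine kinases VEGFR2 (Kdr) and VEGFR1 (Flt1), the latter often described as a decoy that limits VEGF signalling. Angiopoietin-1, made mainly by mural and other supporting cells, activates the receptor TIE2 (Tek) and stabilises vessels, while angiopoietin-2, released by endothelium, can oppose it; TIE1 is a partner of TIE2. Apelin is a peptide ligand of the G protein-coupled receptor APJ (Aplnr), known in vessels for effects on growth, permeability and tone, and ANGPTL4 is an inhibitor of lipoprotein lipase that does not bind the TIE receptors.

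Several libraries stood apart, and their labels and markers bear on what follows. Library totals ran from 30198619 to 50009041 counts. Tspo, which checks the genotype labels, had 5 to 20 counts in 7 of the 8 knockout libraries, but the library labelled knockout PBS replicate 1 had 98 counts, or 2.33 CPM (counts scaled to library size), a level within those of the wild-type PBS libraries (2.06 to 5.17 CPM). The knockout PBS group below includes that library unless stated. A score of 7 acute LPS response genes (mean log2 CPM relative to wild-type PBS) was 4.42, 4.33 and 4.34 in wild-type LPS replicates 2, 3 and 4. It was 0.29 in wild-type LPS replicate 1 and between -0.52 and -0.27 in the 4 libraries labelled knockout LPS, beside -0.18 to 0.21 in wild-type PBS. Choroid plexus transcripts were near 0 in wild-type PBS replicate 1 and wild-type LPS replicate 1 (scores of -3.83 and -4.09) and reached 2.54 in wild-type PBS replicate 4. Markers of hippocampal neurons were present in every library, with summed levels of 395 to 768 CPM. A score of thalamus and cerebellum genes was 2.72 in the library labelled knockout PBS replicate 2 and -1.39 to 0.61 in the others. After LPS in wild type the median log2 difference of that list was -0.91, and 1 of 8 genes tested was called by edgeR (Prkcd, -2.59), beside 8.57% of all genes. The part of such tissue in the differences below was not tested. The sample titles also carry codes of unstated meaning: wild-type LPS replicates 2, 3 and 4 share a code with knockout PBS replicate 4, and wild-type PBS replicate 4 shares one with wild-type LPS replicate 1. No code is shared between genotypes within a treatment or between the knockout treatments, so code and group cannot be told apart in those comparisons.

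Of the 10 genes, 6 had promoter sequence in the RefSeq table used. The 250 bases before the annotated start are shown for the 4 genes that fell after LPS in wild type (RefSeq, GRCm38.p6, written 5′ to 3′ on the gene's own strand; for Vegfa the farther upstream of its starts). Capitals mark every match, on either strand, to one of the sequences searched.
Apln, chrX:48034854-48035103, minus strand: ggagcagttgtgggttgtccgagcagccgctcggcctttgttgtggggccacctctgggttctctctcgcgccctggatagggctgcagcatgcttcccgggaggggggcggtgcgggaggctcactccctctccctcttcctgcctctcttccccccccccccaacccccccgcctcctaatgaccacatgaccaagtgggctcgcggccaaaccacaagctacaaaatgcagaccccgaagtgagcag
Vegfa, chr17:46032378-46032627, minus strand: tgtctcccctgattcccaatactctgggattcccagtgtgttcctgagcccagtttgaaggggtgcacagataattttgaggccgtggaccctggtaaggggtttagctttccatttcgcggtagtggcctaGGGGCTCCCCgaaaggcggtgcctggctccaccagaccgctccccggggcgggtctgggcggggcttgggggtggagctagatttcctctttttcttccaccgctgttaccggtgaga
Flt1, chr5:147726012-147726261, minus strand: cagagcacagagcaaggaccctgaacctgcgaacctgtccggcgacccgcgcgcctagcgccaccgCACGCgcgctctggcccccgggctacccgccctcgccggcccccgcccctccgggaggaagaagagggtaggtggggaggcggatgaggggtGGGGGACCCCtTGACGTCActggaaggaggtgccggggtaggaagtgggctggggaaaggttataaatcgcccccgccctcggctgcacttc
Tek, chr4:94739039-94739288, plus strand: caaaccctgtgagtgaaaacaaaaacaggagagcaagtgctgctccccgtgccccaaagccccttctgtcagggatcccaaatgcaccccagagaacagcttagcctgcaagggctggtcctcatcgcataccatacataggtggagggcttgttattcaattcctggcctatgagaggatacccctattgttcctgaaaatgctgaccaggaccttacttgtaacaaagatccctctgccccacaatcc
The sequences searched were the hypoxia response cores ACGTG and GCGTG, the glucocorticoid response palindrome ACANNNTGT, the ETS core CCGGAA, the cyclic AMP response element TGACGTCA, the PPAR direct repeat and the NF-kappaB consensus. The windows of Apln and Tek held none of these letters. The Vegfa window held 1 match to the NF-kappaB consensus, beginning at -118 from the start. The Flt1 window held GCGTG at -184, the NF-kappaB consensus at -92 and TGACGTCA at -81. Among 32851 promoter windows of the same length, 28.2% held GCGTG, 16.6% ACGTG, 12% CCGGAA, 7.25% the NF-kappaB consensus and 1.55% TGACGTCA. No match is common to all 4 windows shown, though those of Vegfa and Flt1 both hold the NF-kappaB consensus, as does that of Kdr. A match describes letters only.

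Per kilobase of annotated exon, Vegfa had the highest level of the 10 genes in wild-type PBS at 22.8 ± 4.53 CPM per kilobase (SD, n = 4), followed by Apln at 9.46 ± 2.48 and Flt1 at 5.79 ± 0.929. The receptors Tek (3.23 ± 0.309), Tie1 (2.42 ± 0.188) and Kdr (1.97 ± 0.141) came next on the same scale. Below them were Angpt1 (1.40 ± 0.301), Angptl4 (0.727 ± 0.238), Angpt2 (0.520 ± 0.180) and Aplnr (0.0982 ± 0.0319). Library ranges overlapped between the neighbours Apln and Flt1, between Angptl4 and Angpt2, and narrowly between Angpt1 (down to 0.951) and Angptl4 (up to 0.966). The exon length counts every annotated isoform, so genes read from short isoforms are understated. Aplnr was read from only 2 to 17 counts per library.

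**Figure D1:**
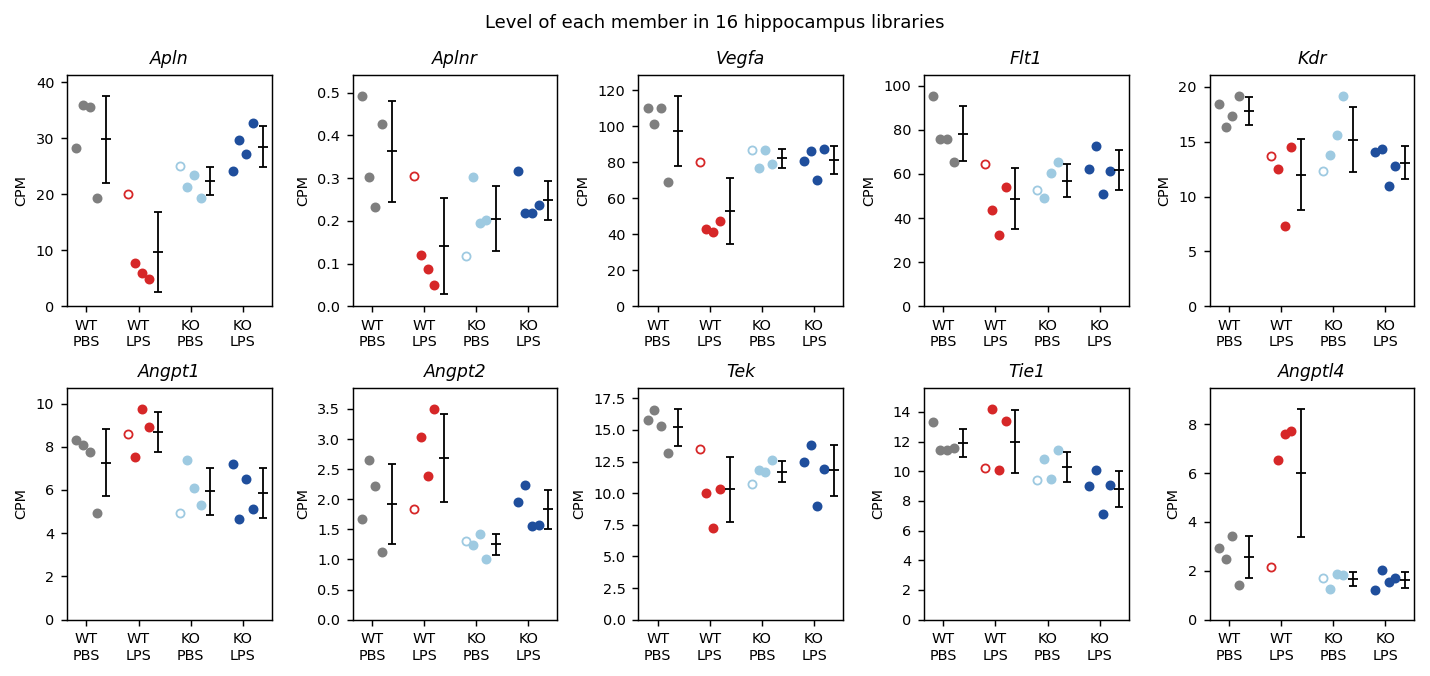
Level of each gene in CPM (vertical axis, from 0) in the 4 groups (horizontal axis), 1 point per library, with the mean ± SD of 4 libraries beside them; open circles are the libraries labelled replicate 1 of wild-type LPS and of knockout PBS. In the Apln, Vegfa and Angptl4 panels, wild-type LPS replicates 2 to 4 lie outside the range of all the other libraries, and replicate 1 does not.

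In wild type, LPS went with lower Apln, Vegfa, Flt1 and Tek and with higher Angptl4. By edgeR's quasi-likelihood test with Benjamini-Hochberg adjustment over 16269 genes (called at an adjusted p under 0.05), 4 of the 10 genes were lower and 1 was higher, and 5 did not pass. Over all genes tested, 3.85% were lower, 4.72% higher and 8.57% called in either direction. The median difference of the 10 genes was -0.57 on the log2 scale, against 0.0023 over all genes. Differences here and below are log2 fold changes ± SE, and library values are in the order of replicates 1 to 4. Groups that did not overlap were seen for Flt1 and Kdr, both lower, where 4.41% of all genes did so. The count of called members turned on single libraries. It was 2 when any of wild-type PBS replicates 1, 2 or 3 or wild-type LPS replicates 2, 3 or 4 was left out (3.28% to 8.36% of all genes in those fits), and 7 (20.5% of all genes) without wild-type LPS replicate 1, when Aplnr and Kdr were called as well. In a fit of only the 8 libraries compared, 0 of the 10 were called, and 0% of all genes, with adjusted p of 0.116 to 0.162 for the 5 genes called above and the same directions.

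Apln (ENSMUSG00000037010; chromosome X, 48025146 to 48034853, minus strand, GENCODE M21 on GRCm38), the gene of the apelin peptide, had the widest fall. It stood at 28.3, 36, 35.5 and 19.3 CPM in wild-type PBS replicates 1 to 4, and at 20.1, 7.78, 5.87 and 4.97 CPM in wild-type LPS replicates 1 to 4. Replicates 2, 3 and 4 of the LPS group lay below every other library of the study, whereas replicate 1 lay above wild-type PBS replicate 4, so the groups overlapped. The fall was 1.63 ± 0.34 on the log2 scale (that is 3.09-fold lower; SE; adjusted p = 0.0107 by edgeR), and the call held when any 1 of the 16 libraries was left out but not in the fit of only the 8 libraries compared (-1.63, adjusted p = 0.117). Without wild-type LPS replicate 1 the difference was -2.26. The only wild-type pair of PBS and LPS libraries with a shared title code, PBS replicate 4 and LPS replicate 1, had nearly equal levels of 19.3 and 20.1 CPM, and knockout PBS replicate 4, which shares the code of LPS replicates 2 to 4, had 19.3 CPM. In the wild-type pair Vegfa was at 69 and 80 CPM, Flt1 at 65.5 and 64.6 and Tek at 13.2 and 13.5. Kdr was at 19.2 and 13.7 CPM there, and Angptl4 at 1.44 and 2.14.

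In the knockout no fall in Apln was detected. It stood at 25, 21.3, 23.5 and 19.3 CPM in the libraries labelled knockout PBS replicates 1 to 4 and at 24.2, 29.7, 27.1 and 32.8 CPM in knockout LPS replicates 1 to 4. The groups overlapped only through the library labelled PBS replicate 1, the one with Tspo at the wild-type level: the other 3 PBS libraries lay below all 4 LPS libraries. LPS and PBS differed by 0.35 ± 0.33, short of the threshold (edgeR adjusted p = 0.789), and by 0.41 ± 0.37 with that library left out (adjusted p = 0.798). Under LPS the knockout was higher than wild type by 1.56 ± 0.34 (adjusted p = 0.0113 by edgeR), and every knockout library lay above every wild-type one (exact two-sided permutation p = 0.0286, the smallest that 4 against 4 libraries can give; 44 such tests, those of Tspo included, were run and are not adjusted). The genotype by treatment interaction was 1.98 ± 0.47, with an adjusted p of 0.0532 by edgeR. Leaving out wild-type LPS replicate 1 gave 2.61 (adjusted p = 3.26e-05), and leaving out wild-type PBS replicate 4 gave 2.14 (adjusted p = 0.0318), both called.

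Aplnr (ENSMUSG00000044338; chromosome 2, 85136225 to 85139923, plus strand), the receptor of apelin, had too few counts for a firm statement. Its levels were 0.493, 0.302, 0.232 and 0.426 CPM in wild-type PBS and 0.305, 0.12, 0.0881 and 0.0507 CPM in wild-type LPS. The last 3 of these lay below all 4 PBS libraries, while the first did not. The difference was -1.39 ± 0.45 and did not pass (adjusted p = 0.0697 by edgeR); without wild-type LPS replicate 1 it was -2.01 and passed (adjusted p = 0.00375). In the knockout Aplnr ran from 0.119 to 0.303 CPM after PBS and from 0.219 to 0.316 CPM after LPS, and under LPS the difference between genotypes was 0.84 ± 0.46 (adjusted p = 0.246 by edgeR). That difference and the interaction passed only without wild-type LPS replicate 1 among the 16 libraries left out in turn, at 1.47 (adjusted p = 0.0236) and 2.31 (adjusted p = 0.0128).

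Vegfa (ENSMUSG00000023951; chromosome 17, 46016993 to 46032369, minus strand), the ligand of VEGFR1 and VEGFR2, followed the pattern of Apln with a smaller size. It stood at 110, 101, 110 and 69 CPM in wild-type PBS libraries and at 80, 43, 41.2 and 47.3 CPM in those of wild-type LPS. Wild-type LPS replicates 2 to 4 were again below all other libraries, and replicate 1 was above PBS replicate 4. The fall was 0.88 ± 0.19 on the log2 scale (1.85-fold lower; adjusted p = 0.011 by edgeR), and it was called whichever of the 16 libraries was left out but not in the fit of only the 8 libraries compared (adjusted p = 0.116). In the knockout, Vegfa ran from 76.6 to 86.7 CPM after PBS and from 70.2 to 87.4 CPM after LPS, and the difference was -0.019 ± 0.19 (adjusted p = 0.981 by edgeR). Under LPS the knockout was higher by 0.62 ± 0.19 (adjusted p = 0.0437 by edgeR), but the groups overlapped. That call was lost when any 1 of 12 libraries was left out, namely wild-type PBS replicates 2 and 3, wild-type LPS replicates 2, 3 and 4, libraries labelled knockout PBS replicates 1, 3 and 4 and the 4 knockout LPS libraries, with values of 0.52 to 0.68 and adjusted p of 0.0515 to 0.131. Without wild-type LPS replicate 1 it was 0.89. The interaction was 0.87 ± 0.26 (adjusted p = 0.0874 by edgeR), and it was called on leaving out wild-type LPS replicate 1 (1.14, adjusted p = 0.000962) or wild-type PBS replicate 4 (1.0, adjusted p = 0.0357).

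Flt1 (ENSMUSG00000029648; chromosome 5, 147561604 to 147726011, minus strand), which encodes VEGFR1, stood at 95.5, 75.8, 76 and 65.5 CPM in wild-type PBS libraries and at 64.6, 43.8, 32.3 and 53.9 CPM in those of wild-type LPS. Every LPS library lay below every PBS library, though replicate 1 did so by under 1 CPM. The fall was 0.68 ± 0.18 on the log2 scale (adjusted p = 0.0288 by edgeR; exact two-sided permutation p = 0.0286). Its call was lost without wild-type PBS replicate 1, 2 or 3 or wild-type LPS replicate 2, 3 or 4, at values of -0.74 to -0.53 and adjusted p of 0.0529 to 0.0834. In the knockout the range was 49 to 65.5 CPM after PBS and 50.7 to 72.7 CPM after LPS, so these groups overlapped widely. Under LPS the genotypes differed by 0.34 ± 0.18, which did not pass (adjusted p = 0.223 by edgeR). Without wild-type LPS replicate 1 that difference was 0.51 (adjusted p = 0.0416) and the interaction, 0.80 ± 0.25 over all libraries (adjusted p = 0.0963), was 0.97 (adjusted p = 0.0122).

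Kdr (ENSMUSG00000062960; chromosome 5, 75932827 to 75978458, minus strand), which encodes VEGFR2, the main signalling receptor for VEGF-A, stood at 18.4, 16.3, 17.3 and 19.2 CPM in wild-type PBS libraries and at 13.7, 12.5, 7.34 and 14.5 CPM in those of wild-type LPS. All LPS libraries were below all PBS libraries, and replicate 3 was the lowest of the study. The difference of -0.57 ± 0.18 missed the threshold (adjusted p = 0.0633 by edgeR), and leaving out wild-type LPS replicate 1 brought it past (-0.64, adjusted p = 0.0323). The knockout libraries ran from 12.3 to 19.2 CPM after PBS and from 11 to 14.3 CPM after LPS, and overlapped. The ratio of Flt1 to Kdr per kilobase was 2.95 ± 0.498 in wild-type PBS and 2.73 ± 0.382 in wild-type LPS (SD, n = 4 each), a difference smaller than the spread.

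The other VEGF ligands, receptors and coreceptors tested were Vegfb, Vegfc, Vegfd, Pgf, Flt4, Nrp1 and Nrp2. Of these 7, 0 were called by edgeR after LPS in wild type, beside 8.57% of all genes, and the median difference of the 7 was 0.045. In wild type Vegfb was at 39.1 ± 2.63 CPM after PBS and 34.9 ± 6.89 CPM after LPS, and Pgf, the ligand placental growth factor, at 2.18 ± 0.232 and 2.97 ± 1.09 CPM (SD, n = 4 each). Between the genotypes under LPS 1 of the 7 was called, beside 11.9% of all genes. It was Flt4 (VEGFR3, best known in lymphatic endothelium), with a knockout minus wild-type difference of -1.02 ± 0.28 (adjusted p = 0.0292 by edgeR), at 3.00 ± 0.546 against 6.07 ± 2.56 CPM.

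The angiopoietins showed no called change in wild type. Of the receptors, Tek was called lower and Tie1 was not called, and the contrast between them was not tested. Angpt1 (ENSMUSG00000022309; chromosome 15, 42424723 to 42676977, minus strand), the activating ligand of TIE2, stood at 8.33, 8.08, 7.74 and 4.95 CPM in wild-type PBS libraries and at 8.58, 7.54, 9.75 and 8.9 CPM in those of wild-type LPS. PBS replicate 4 was the low library, and the other libraries were close together. The difference was 0.26 ± 0.18 (adjusted p = 0.411 by edgeR). The knockout LPS libraries, at 7.18, 4.68, 6.5 and 5.13 CPM, all lay below the wild-type LPS libraries, a difference of -0.56 ± 0.18 that missed the threshold (adjusted p = 0.0531 by edgeR; exact two-sided permutation p = 0.0286). It passed without wild-type PBS replicate 4, wild-type LPS replicate 1, knockout PBS replicate 2 or knockout LPS replicate 1, with values of -0.68 to -0.56 and adjusted p of 0.0248 to 0.0485. The knockout PBS libraries were also low, at 4.94 to 7.4 CPM. An antisense gene, Gm17473, overlaps Angpt1, and no source used here gives whether the counts separate the strands.

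Angpt2 (ENSMUSG00000031465; chromosome 8, 18690263 to 18741562, minus strand), the context-dependent antagonist of TIE2, stood at 1.68, 2.65, 2.22 and 1.12 CPM in wild-type PBS libraries and at 1.83, 3.04, 2.38 and 3.5 CPM in those of wild-type LPS, with overlap. It stood at 1.31, 1.24, 1.43 and 1.01 CPM in knockout PBS and at 1.95, 2.24, 1.56 and 1.58 CPM in knockout LPS, where every LPS library was above every PBS library. The LPS difference was 0.49 ± 0.25 in wild type (adjusted p = 0.254) and 0.55 ± 0.26 in the knockout (adjusted p = 0.703), both by edgeR and neither called. The interaction for Angpt2 was 0.064 ± 0.36 (adjusted p = 0.94 by edgeR), with a sign that changed when single libraries were left out. Angpt2 lies within Mcph1 on the opposite strand, so the limit on strand applies to it too. The ratio of Angpt2 to Angpt1 per kilobase was 0.368 ± 0.0812 and 0.442 ± 0.139 in wild-type PBS and LPS and 0.302 ± 0.0611 and 0.458 ± 0.150 in the knockout (SD, n = 4 each).

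Tek (ENSMUSG00000006386; chromosome 4, 94739289 to 94874976, plus strand), which encodes TIE2, stood at 15.8, 16.6, 15.3 and 13.2 CPM in wild-type PBS libraries and at 13.5, 10, 7.23 and 10.3 CPM in those of wild-type LPS. Only wild-type LPS replicate 1 reached into the PBS range. The fall was 0.57 ± 0.16 on the log2 scale (adjusted p = 0.0391 by edgeR). It lost its call when any of 8 libraries was left out (wild-type PBS replicates 1, 2 and 3, wild-type LPS replicates 2, 3 and 4, knockout PBS replicate 3 and knockout LPS replicate 4), with values of -0.57 to -0.43 and adjusted p of 0.0515 to 0.115. In the knockout Tek ran from 10.7 to 12.6 CPM after PBS, below all wild-type PBS libraries, and from 8.96 to 13.8 CPM after LPS. Under LPS the genotypes differed by 0.20 ± 0.16 (adjusted p = 0.436 by edgeR). The interaction, 0.58 ± 0.23 over all libraries (adjusted p = 0.154), was 0.74 without wild-type LPS replicate 1 (adjusted p = 0.0221).

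Tie1 (ENSMUSG00000033191; chromosome 4, 118471191 to 118490061, minus strand), the partner receptor with no ligand of high affinity among the angiopoietins, stood at 13.3, 11.4, 11.4 and 11.6 CPM in wild-type PBS libraries and at 10.2, 14.2, 10.1 and 13.4 CPM in those of wild-type LPS. The LPS libraries fell on both sides of the PBS libraries, and the difference was 0.01 ± 0.13 (adjusted p = 0.975 by edgeR). In the knockout it stood at 9.4, 10.8, 9.49 and 11.4 CPM after PBS and at 8.98, 10.1, 7.1 and 9.06 CPM after LPS. The highest knockout LPS library and the lowest wild-type LPS library were both at 10.1 CPM after rounding, and the groups just failed to overlap. Under LPS the knockout minus wild-type difference in Tie1 was -0.45 ± 0.13 (adjusted p = 0.0373 by edgeR; exact two-sided permutation p = 0.0286). The call was lost without wild-type LPS replicate 2 or 4 or knockout LPS replicate 1, 3 or 4, at values of -0.46 to -0.35 and adjusted p of 0.0649 to 0.114.

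The ratio of Tek to Tie1 per kilobase set 3 libraries apart. It was 0.734, 0.746 and 0.805 in wild-type LPS replicates 2, 3 and 4 and between 1.14 and 1.52 in the other 13 libraries, wild-type LPS replicate 1 among them at 1.38. These values describe the libraries and were not tested. Of the other Tie and apelin partners, 3 of 5 had enough counts (Ptprb, Svep1 and Foxo1). After LPS in wild type 1 of the 3 was called, beside 8.57% of all genes. Ptprb, the endothelial phosphatase that acts on TIE2, fell by 0.95 ± 0.23 on the log2 scale (adjusted p = 0.0205 by edgeR), from 45.6 ± 9.92 to 23.7 ± 10.4 CPM. In the knockout Ptprb was at 34.9 ± 2.10 CPM after PBS and 37.3 ± 5.78 CPM after LPS (SD, n = 4 each). Foxo1, a transcription factor held in check by TIE2 signalling, in wild type was at 37.7 ± 4.30 CPM after PBS and 46.8 ± 9.88 CPM after LPS and did not pass (adjusted p = 0.227 by edgeR).

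Angptl4 (ENSMUSG00000002289; chromosome 17, 33773750 to 33781830, minus strand), the secreted lipase inhibitor, moved opposite to Apln. It stood at 2.93, 2.5, 3.42 and 1.44 CPM in wild-type PBS libraries and at 2.14, 6.52, 7.61 and 7.73 CPM in those of wild-type LPS. Replicates 2, 3 and 4 of the LPS group lay above every other library, and replicate 1 was inside the PBS range. The rise was 1.23 ± 0.34 on the log2 scale (2.34-fold; adjusted p = 0.0363 by edgeR), and was 1.5 without wild-type LPS replicate 1. The call was lost when any 1 of the 4 wild-type PBS libraries or wild-type LPS replicates 2, 3 or 4 was left out, at values of 1.02 to 1.40 and adjusted p of 0.05034 to 0.107. With the replicate number as a block in the model it was 1.16 and not called (adjusted p = 0.0682).

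In the knockout no rise in Angptl4 was detected. Its levels were 1.71, 1.27, 1.88 and 1.81 CPM after PBS and 1.22, 2.02, 1.54 and 1.7 CPM after LPS. Under LPS the knockout libraries all lay below the wild-type libraries, and the difference in Angptl4 was -1.89 ± 0.35 (3.71-fold lower in the knockout; adjusted p = 0.00517 by edgeR; exact two-sided permutation p = 0.0286), a call kept whichever of the 16 libraries was left out. The interaction was -1.27 ± 0.48 (adjusted p = 0.148 by edgeR) and was called on leaving out wild-type LPS replicate 1 (-1.55, adjusted p = 0.00731). Of 9 angiopoietin-like and lipase partners, 5 were tested and 0 were called in any comparison by edgeR, where at most 11.9% of all genes were. Lpl, the lipase that ANGPTL4 inhibits, was in wild type at 35.6 ± 9.46 CPM after PBS and 26.4 ± 7.61 CPM after LPS (SD, n = 4 each; adjusted p = 0.238 by edgeR).

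**Figure D2:**
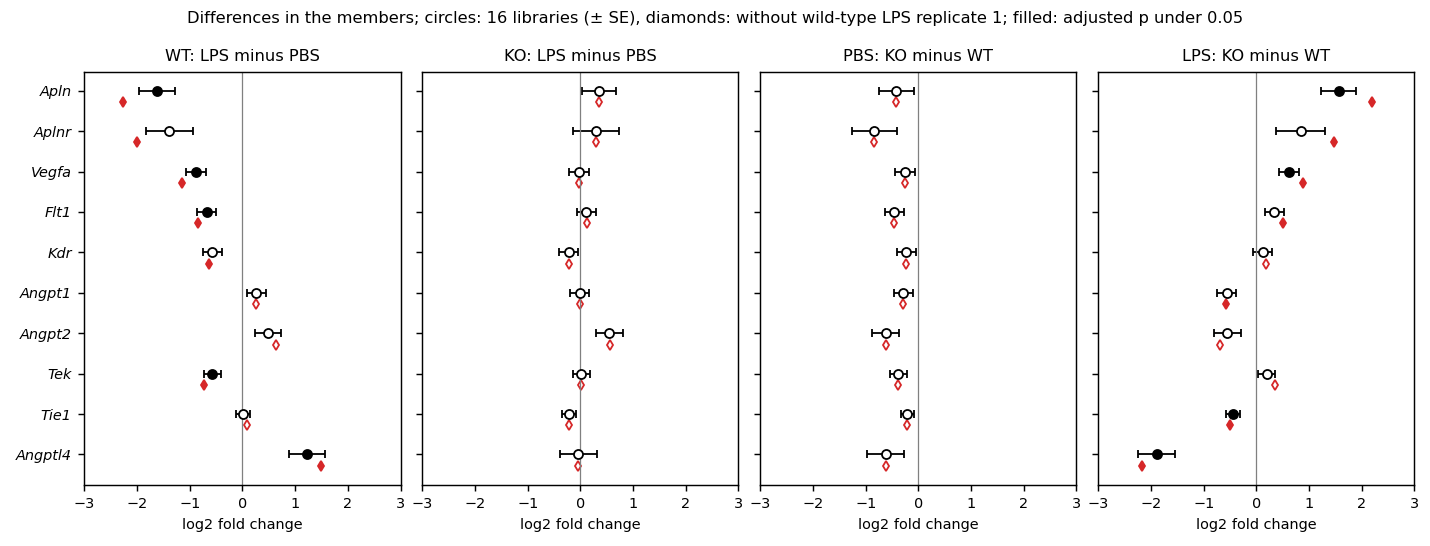
Difference in each gene on the log2 scale (horizontal axis) in the 4 pairwise comparisons; circles with SE bars are fits over 16 libraries, diamonds leave out wild-type LPS replicate 1, and filled symbols have an adjusted p under 0.05. Called genes appear in the wild-type LPS and the LPS genotype panels, and the other panels hold open symbols only.

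Between the genotypes under LPS, 2 of the 10 genes were higher in the knockout (Apln and Vegfa) and 2 lower (Tie1 and Angptl4), where 4.61% of all genes were higher, 7.28% lower and 11.9% called in all. Groups that did not overlap were seen for Apln (higher) and for Angpt1, Angptl4 and Tie1 (lower), beside 7.35% of all genes higher and 6.98% lower. The count was 2 without wild-type LPS replicate 2 or 4 or knockout LPS replicate 3 or 4 (5.85% to 8.02% of all genes in those fits), and 7 without wild-type LPS replicate 1 (24.3% of all genes). In the fit of only the 8 libraries compared it was 1 (2.74% of all genes), Angptl4, with Apln at an adjusted p of 0.068, Vegfa at 0.107 and Tie1 at 0.116. Limma-voom called 8 (25% of all genes). This comparison uses the wild-type LPS libraries that also enter the comparison of LPS with PBS in wild type, and the score of acute LPS response genes was near that of the PBS libraries in all 4 knockout LPS libraries. Its part in these differences was not tested.

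In the knockout, LPS against PBS gave 0 of 10 genes called by edgeR, as it gave 0% of all genes. The unadjusted p was under 0.05 for 1 of the 10 (Angpt2) and for 1120 of 16269 genes. DESeq2 called 0 of the 10 (0.0184% of all genes) and limma-voom 0 (0%). The median difference of the 10 was -0.00073, against -0.013 over all genes. Groups that did not overlap were seen for 1 of the 10 (Angpt2, higher), beside 3.04% of all genes. The count was also 0 of 10, and 0% of all genes, on leaving out the one labelled knockout PBS replicate 1.

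Under PBS, knockout against wild type gave 0 of 10 genes called by edgeR, beside 0.0369% of all genes, and DESeq2 (0.104% of all genes) and limma-voom (1.89%) also called 0. The unadjusted p was under 0.05 for 3 of the 10 and for 841 of 16269 genes. The 3 were Flt1 (-0.46 ± 0.18), Tek (-0.38 ± 0.16) and Angpt2 (-0.62 ± 0.26), each with an adjusted p of 0.918 by edgeR. All 10 differences were below 0, with a median of -0.40 against 0.005 over all genes. The endothelial markers described below were likewise all below 0, from -0.44 (Abcb1a) to -0.038 (Egfl7), and none was called. Their score, relative to wild-type PBS, was -0.28, -0.26, -0.21 and -0.13 in the libraries labelled knockout PBS replicates 1 to 4. The part of this shift in the differences of the 10 genes was not tested. Tek alone had groups that did not overlap, lower where 1.82% of all genes were. The count was again 0, beside 0.0303% of all genes, on leaving out the one labelled knockout PBS replicate 1.

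The interaction, which asks whether the LPS difference depends on genotype, was called for 0 of 10 genes by edgeR, beside 1.15% of all genes. The unadjusted p was under 0.05 for 6 of the 10 and for 3520 of 16269 genes. DESeq2 called 3 (7.86% of all genes) and limma-voom 6 (24.8%). Without wild-type LPS replicate 1 edgeR called 6 (16.1%): Apln, Aplnr, Angptl4, Tek, Flt1 and Vegfa. Each was positive apart from Angptl4.

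Most of the receptors are endothelial genes, so their levels were set beside endothelial markers. In bulk tissue fewer cells of a type and less RNA per cell cannot be told apart. Of 12 endothelial marker genes, 1 was higher after LPS in wild type (Ly6c1, by 1.33) and 1 lower (Itm2a, -1.23), beside 4.72% and 3.85% of all genes. The median difference of the 12 was 0.18, and all 12 passed the filter on low counts. Their summed level ran from 257 to 305 CPM in wild type after PBS and from 238 to 351 CPM after LPS. The endothelial score, the mean log2 level of those markers relative to wild-type PBS, was -0.15, 0.28, 0.084 and 0.30 in wild-type LPS replicates 1 to 4. Relative to that score, Flt1 was at -0.11, -1.10, -1.34 and -0.82, Tek at -0.014, -0.87, -1.15 and -0.85, and Kdr at -0.22, -0.78, -1.35 and -0.59 in the same libraries. Tie1 was at -0.066, -0.018, -0.32 and -0.13. Flt1, Tek and Kdr thus stood below the endothelial score in 3 wild-type LPS libraries, and Tie1 was nearer to it. That score is a mean of markers that went both ways. Over the group, Itm2a fell by more than Flt1 (-0.68), Tek or Kdr (-0.57 each).

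Markers of other cell types were read in the same way. After LPS in wild type 3.85% of all genes were called lower and 4.72% higher. Of 10 mural cell markers, 2 were lower after LPS in wild type (Rgs5, -0.66, and Abcc9, -0.33) and 0 higher, with scores of -0.074, -0.34, -0.70 and -0.22 in wild-type LPS replicates 1 to 4 and a summed level of 260 to 312 CPM after PBS and 171 to 254 CPM after LPS. Astrocyte markers scored 0.13, 0.15 and 0.20 in wild-type LPS replicates 2 to 4, where Vegfa was low, and 1 of 8 was called higher. Their score is also a mean of markers that went both ways, from -0.33 (Aqp4) to 0.55 (Aldh1l1) over the group. Neuron markers scored 0.055, -0.069, -0.057 and -0.094 in wild-type LPS replicates 1 to 4, and none of 6 was called. Of 5 leukocyte markers 4 were tested and 3 of these were called higher, and the list scored 0.68, 3.05, 2.68 and 3.68 in wild-type LPS replicates 1 to 4, at a summed level of 0.947 to 13.4 CPM against 0.426 to 0.725 CPM in wild-type PBS. Of 6 microglial markers 1 was called, P2ry12 (-1.35 ± 0.33, adjusted p = 0.0217 by edgeR). None of 5 red blood cell markers was called by edgeR, at a median log2 difference of -2.60 and summed levels of 12.5 to 108 CPM against 63.4 to 818 CPM. Oligodendrocyte markers scored -0.98, -0.48, -1.19 and -1.64 in the 4 wild-type LPS libraries, and 4 of 6 were lower. Under LPS, 5 of the 12 endothelial markers were lower in the knockout and 1 was higher, where 7.28% and 4.61% of all genes were. The median of the 12 was -0.42, beside the lower Tie1. The part of these shifts in the differences above was not tested.

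**Figure D3:**
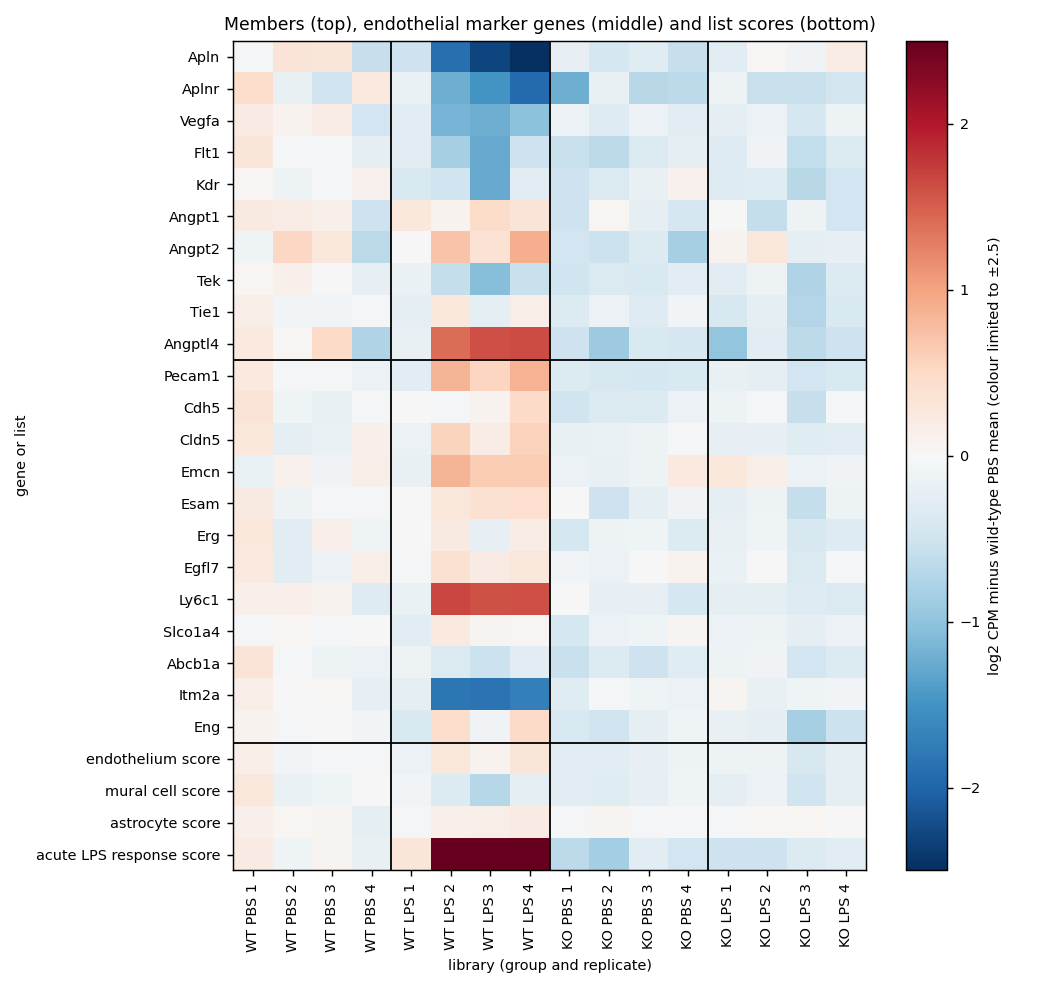
Log2 CPM minus the wild-type PBS mean (colour, limited to ±2.5) for the 10 genes, 12 endothelial markers and 4 list scores (rows) in 16 libraries (columns). Wild-type LPS replicates 2 to 4 show low Apln, Vegfa, Flt1 and Tek beside endothelial scores of 0.28, 0.084 and 0.30.

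Genes that lie downstream of these ligands, or that share their known inducers, were read from 7 lists of 77 genes, of which 71 were tested. After LPS in wild type 11 were higher and 3 lower, beside 4.72% and 3.85% of all genes. Of 16 endothelial VEGF and Notch targets, Nos3, the endothelial nitric oxide synthase, rose (0.82 ± 0.23, adjusted p = 0.0377 by edgeR), Sox17, an arterial transcription factor, fell by 0.58 ± 0.17 (adjusted p = 0.0474), and 14 did not pass. Of 17 hypoxia genes, a class to which Vegfa belongs, only Ndrg1, a stress-responsive gene that myelinating cells also express, was called: it fell by 1.01 ± 0.13 (adjusted p = 0.00251 by edgeR), from 158 to 78.5 CPM. The median of the hypoxia list was -0.043.

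Of 11 PPAR and fasting genes, a class that includes Angptl4, Pdk4 (1.04 ± 0.26, adjusted p = 0.0249) and Plin2 (0.75 ± 0.18, adjusted p = 0.0182) rose by edgeR, encoding a brake on glucose oxidation and a lipid droplet coat protein. Of 13 glucocorticoid-responsive genes, 8 rose and 0 fell, with a median of 0.79. The smallest p-values among them were those of Cdkn1a, a cell cycle inhibitor (2.20 ± 0.38, adjusted p = 0.00455), and Mt1, a metallothionein (1.56 ± 0.29, adjusted p = 0.00627), both by edgeR. Fkbp5, a chaperone and common glucocorticoid reporter, rose by 1.25 ± 0.29 (adjusted p = 0.0179 by edgeR). Several of these genes also answer inflammatory signals, Nfkbia among them.

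Under LPS, 17 of the 71 were lower in the knockout and 1 was higher, beside 7.28% and 4.61% of all genes. The lower ones included 7 of 13 glucocorticoid-responsive genes, 5 of 11 PPAR and fasting genes and 3 of 16 VEGF and Notch targets (Nos3, -1.15 ± 0.23, adjusted p = 0.00741 by edgeR; Apold1; and Notch4). Ndrg1 was the higher one (0.79 ± 0.13, adjusted p = 0.00328 by edgeR). In the knockout itself 0 of the 71 were called after LPS by edgeR (0% of all genes), and DESeq2 (0.0184%) and limma-voom (0%) also called 0. Left-out libraries moved these counts. After LPS in wild type 28 genes were called without wild-type LPS replicate 1 (20.5% of all genes). They were 5 to 9 without wild-type PBS replicate 2 or 3 or wild-type LPS replicate 2, 3 or 4 (3.28% to 4.62%). Between genotypes under LPS 32 were called without wild-type LPS replicate 1 (24.3%). They were 8 to 12 without any 1 of wild-type LPS replicates 2, 3 and 4 or of the 4 knockout LPS libraries (5.23% to 9.27%).

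**Figure D4:**
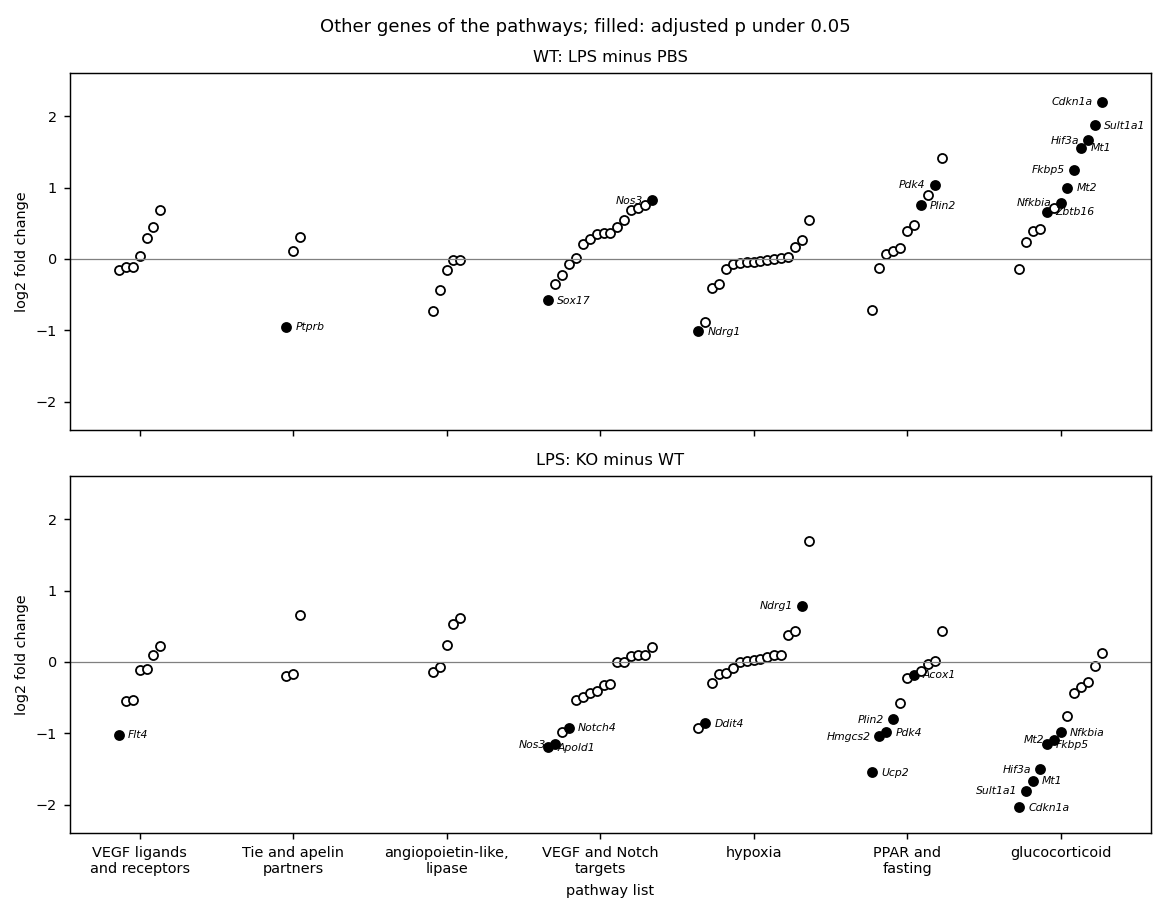
Differences on the log2 scale (vertical axis) for the genes of the 7 lists (horizontal axis), ordered by size within a list; filled points have an adjusted p under 0.05 and are named. In wild type (top) 8 glucocorticoid-responsive genes are filled above 0, and between the genotypes under LPS (bottom) 7 of that list are filled below 0.

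Across the 16 libraries, which share groups and group differences, log2 levels of Apln and Vegfa were correlated at a Pearson r of 0.933, and those of Tek and Flt1 at 0.931. Kdr was correlated with Tek and with Flt1 at 0.834 each, Apln with Angptl4 at -0.764, and Tie1 with Flt1 at only 0.181. Among 13283 genes with a mean log2 CPM of at least 1, the profile most like that of Apln was Clasp2 (0.967), followed by Ubqln1 (0.958) and G3bp2 (0.956). For Vegfa these were Elovl6 (0.956), Xpo1 (0.953) and Ptprb (0.947), and for Angptl4 Eml2 (0.960), Gpx3 (0.949) and Fgfr3 (0.944). Tek and Flt1 were each other's nearest profile, and Tie1 was nearest to the endothelial coreceptor Eng (0.883).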

How the data were processed

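The deposited values are estimated counts per gene, made by the authors and written as whole numbers; the submitters' processing notes name Salmon 1.9.0, MultiQC 1.13, DESeq2 and DESeq without their roles, and no source used here gives a genome build. Per the labels' protocols, RNA was extracted with an RNeasy kit and libraries were made with a NEBNext Ultra kit. Groups and replicate numbers came from the titles. The 10 genes and the gene lists were chosen with earlier results of these data known, and the lists are no independent evidence. The genes named are the 10 members, Tspo, up to 4 genes of each pathway list by smallest p, and the 3 most alike profiles of each member whose mean log2 CPM was at least 1; a few markers and pathway genes beyond that rule were named after their values were seen.

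Symbols and positions came from GENCODE M21 (GRCm38); 105 identifiers, with 0.0537% of the counts, had none. After filterByExpr, 16269 genes and 99.97% of the counts were kept. One model of 4 group means over 16 libraries was fitted with edgeR 4.0.16 (TMM, quasi-likelihood F test, Benjamini-Hochberg over all genes, threshold 0.05; biological coefficient of variation 0.177). The SE is the size of the log2 fold change divided by the root of F. CPM uses TMM-scaled library sizes; its log2 adds a prior count of 2. A list score is the mean over its genes of log2 CPM relative to wild-type PBS. Alternatives were RLE scaling, DESeq2 1.42.0, voom of limma 3.58.1 with sample weights, 2 other filters, a replicate block, smaller sets of libraries and leaving out each library. Same-numbered libraries did not deviate together (24 pairs, r of -0.232 to 0.364, 2 over 0.1). Wild-type PBS replicates 2 and 3 were the most alike pair (chi-square per degree of freedom 3.78, beside 12.3 to 113 for other pairs of a group) but differed by more than counting noise and were kept apart. Reads carry no molecular identifiers.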

Additional observations from a re-analysis of the deposited data

Results flagged for a closer look

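Among 40 groups of 4 libraries (10 genes in 4 groups), 2 had a library far from the other 3, a gap above Dixon's 95% critical value, which chance gives in about 1 of 20 groups. Vegfa in wild-type LPS replicate 1 was at 80 CPM, above the other 3 libraries of its group at 41.2 to 47.3 CPM. Tie1 in wild-type PBS replicate 1 was at 13.3 CPM, above 11.4 to 11.6 CPM.

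The genotype by treatment interaction was called by edgeR for 3 of the 71 pathway genes tested, beside 1.15% of all genes. These calls changed with the settings given at the end of this paragraph, and genotype and title code cannot be told apart. Ndrg1 had an interaction of 0.94 ± 0.18 (adjusted p = 0.0432), Egln3, a prolyl hydroxylase that marks HIF for degradation, 0.95 ± 0.22 (adjusted p = 0.04997), and Mt1 -1.83 ± 0.41 (adjusted p = 0.04997). Mean Egln3 was 6.46 and 5.07 CPM in wild-type PBS and LPS and 4.34 and 6.59 CPM in the knockout, and mean Mt1 was 122, 361, 138 and 115 CPM in the same order. The count of pathway genes called in the interaction was 1 with RLE scaling (0.387% of all genes), with no filter (0.201%) and with the CPM filter (0.288%). It was 0 with the replicate block (0%) and with wild-type PBS replicates 2 and 3 summed (0%). DESeq2 called 13 (7.86%) and limma-voom 28 (24.8%), and leaving out 1 library gave 0 to 24 (0% to 16.1%).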

How the results depend on the processing

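Of the members, Angptl4 in the comparison of genotypes under LPS was called under 26 of 26 alternatives, and Apln there, and Apln and Vegfa after LPS in wild type, under 25 of 26, the exception being the fit of only the 8 libraries compared. Vegfa between genotypes under LPS was called under 12 of 26, Tie1 under 20, and after LPS in wild type Flt1 under 18, Tek and Angptl4 under 16 each. Depth limits Aplnr, which the filter of CPM of at least 1 removed, as did the filter in the 8-library fits of knockout LPS against knockout PBS and against wild-type LPS; 8-library fits cannot give an interaction. Causes of the changes below were not tested.

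Member counts after LPS in wild type (5) were 0 in the 8-library fit (0% of all genes) and 2 with wild-type PBS replicates 2 and 3 summed (4.05%). Between genotypes under LPS (4) they were 8 by limma-voom (25%) and 1 in the 8-library fit (2.74%). For the interaction (0) they were 3 by DESeq2 (7.86%), 6 by limma-voom (24.8%), 6 without wild-type LPS replicate 1 and knockout PBS replicate 1 together (14.6%), and 6 (14.3%) without the pair lacking choroid plexus transcripts (wild-type PBS replicate 1 and wild-type LPS replicate 1, an alternative chosen after seeing the data). Leaving out each library gave 2 to 7, 2 to 7 and 0 to 6 members in these comparisons, and 0 to 0 in the other 2.

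Shares of all genes in the same fit follow each pathway count in brackets. Pathway counts after LPS in wild type (14) were 29 by limma-voom (28.8%), 0 in the 8-library fit (0%) and 7 with the pair summed (4.05%). They were 27 (19.9%) and 27 (18.8%) with either pair left out. Between genotypes under PBS (0) limma-voom gave 6 (1.89%). Between genotypes under LPS (18) limma-voom gave 32 (25%), the 8-library fit 2 (2.74%) and the left-out pairs 32 (23.7%) and 33 (24.4%). For the interaction (3) RLE scaling (0.387%), no filter (0.201%) and the CPM filter (0.288%) gave 1 each. DESeq2 gave 13 (7.86%), limma-voom 28 (24.8%), the summed pair 0 (0%) and the left-out pairs 24 (14.6%) and 24 (14.3%). Leaving out each library gave 5 to 28 (3.28% to 20.5%), 8 to 32 (5.23% to 24.3%) and 0 to 24 (0% to 16.1%). It gave 0 to 0 in the knockout and under PBS (at most 0.0545%).

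Libraries share only a replicate number; in 11 of 48 comparisons a library's best match in another group had its own number. With the replicate number as a block, 4 members were called after LPS in wild type (6.57% of all genes), 4 between genotypes under LPS (9.95%) and 0 in the interaction (0%), in the knockout (0%) and under PBS (0.0184%), and pathway genes numbered 11, 16, 0, 0 and 0.

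Signs changed only for member differences of at most 0.12 in size. Angpt2's interaction (0.064) was -0.06 with the pair summed, -0.055 and -0.027 with the left-out pairs, and -0.14 to 0.26 over single libraries. Tek in the knockout was -0.0063 under the block and -0.028 without the pair at odds with its labels (-0.071 to 0.12 over single libraries). Tie1 in wild type was -0.0064 under the block and -0.0025 with the pair summed (-0.083 to 0.091). Vegfa in the knockout was 0.0082 without the pair at odds with its labels (-0.055 to 0.045). Over single libraries, Angpt1 in the knockout ran from -0.13 to 0.11, Angptl4 there from -0.17 to 0.073 and Kdr between genotypes under LPS from -0.056 to 0.22.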
